A study of Homo sapiens with 24 samples.

Results

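The matrix metalloproteinases (MMPs) are zinc-dependent enzymes that cut collagens and other proteins outside the cell, and the tissue inhibitors of metalloproteinases (TIMPs) bind and block them. The 10 genes described here are MMP1, MMP2, MMP7, MMP9, MMP10, MMP14, TIMP1, TIMP2, TIMP3 and TIMP4, out of 20503 genes with a symbol on the array, and every probe whose RefSeq transcript belongs to 1 of them was taken. Each gene had 1 probe. Of the 10, 8 passed the filter on dim probes and were tested among 24648 genes, while MMP10 and TIMP4 did not pass and are given as values only.

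RNA was measured on 24 one-colour arrays from HepaRG, a single human line of bipotent liver progenitor cells derived from a hepatocellular tumour, in 8 conditions with 3 replicates each. The cells were untransfected, carried a negative control siRNA or a CTNNB1 siRNA (80 pmol each, delivered by electroporation), or received the mouse Frizzled 8 cysteine-rich domain, FZD8_CRD, at 300 ng/ml, and each of these 4 settings was run without and with mouse recombinant Wnt3a at 200 ng/ml. Additions lasted 72 h in serum-free medium with albumin, which all conditions share. CTNNB1 was targeted with a single siRNA, the electroporated cells have no FZD8_CRD counterpart, and FZD8_CRD was compared with untransfected cells.

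In the canonical Wnt pathway, Wnt ligands bind Frizzled receptors and stabilise beta-catenin, the product of CTNNB1, which then acts with TCF/LEF factors on target genes; soluble Frizzled domains bind Wnt ligands outside the cell. MMPs are made as inactive precursors that are cut to become active, often by other MMPs or by proteases of the plasmin and furin families, so that RNA levels are not enzyme activity. In liver, MMPs and TIMPs take part in the turnover of scar matrix, and several MMP genes carry binding sites for AP-1 factors near their start.

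All values are log2 signals relative to the 75th percentile of their array, so that 0 is the level of a fairly bright spot, and -6.13 is the floor to which the dimmest signals were raised. Between 58.3% and 66.5% of the spots of an array were well above background. A gene was called in a comparison when its adjusted p in the limma fit over all 24648 genes was under 0.05. Per-array values are given in the order of replicates 1, 2 and 3, and a replicate number is also a slide, since each slide held all 8 conditions. The paper describes its cultures as 3 independent experiments, and the labels do not say which culture an array came from, so the p-values measure the spread between these samples. As a check of the treatment, CTNNB1 signal was 3.35, 3.37 and 3.51 with control siRNA and 0.26, 0.35 and 0.52 with CTNNB1 siRNA, a fall of 8.19-fold (log2 difference -3.03, SE 0.17, adjusted p 1.17e-09). With Wnt3a in the medium the fall was 8.1-fold (log2 difference -3.02, SE 0.17, adjusted p 7.75e-10).

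Over the 8 conditions, 8 of the 8 tested members differed at adjusted p under 0.05 in limma's F test, which called 56.7% of all genes. The count was 3 of 8 with spike-in scaling (6032 of all genes) and 4 of 8 without replicate 1 of every condition (6725). The adjusted p of this test was 8.16e-10 for MMP7, 2.11e-07 for MMP2, 6.78e-07 for MMP9, 5.44e-06 for TIMP2, 0.000493 for MMP1, 0.00222 for TIMP1, 0.00456 for TIMP3 and 0.026 for MMP14. MMP1 passed the filter on dim probes through 2 Wnt3a conditions alone, so that its passing already required a difference, and it adds no support to this count. The plot of the signals on each array shows MMP7 spread over 5.45 log2 units and TIMP1 and TIMP2 over less than 1.

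**Figure D1:**
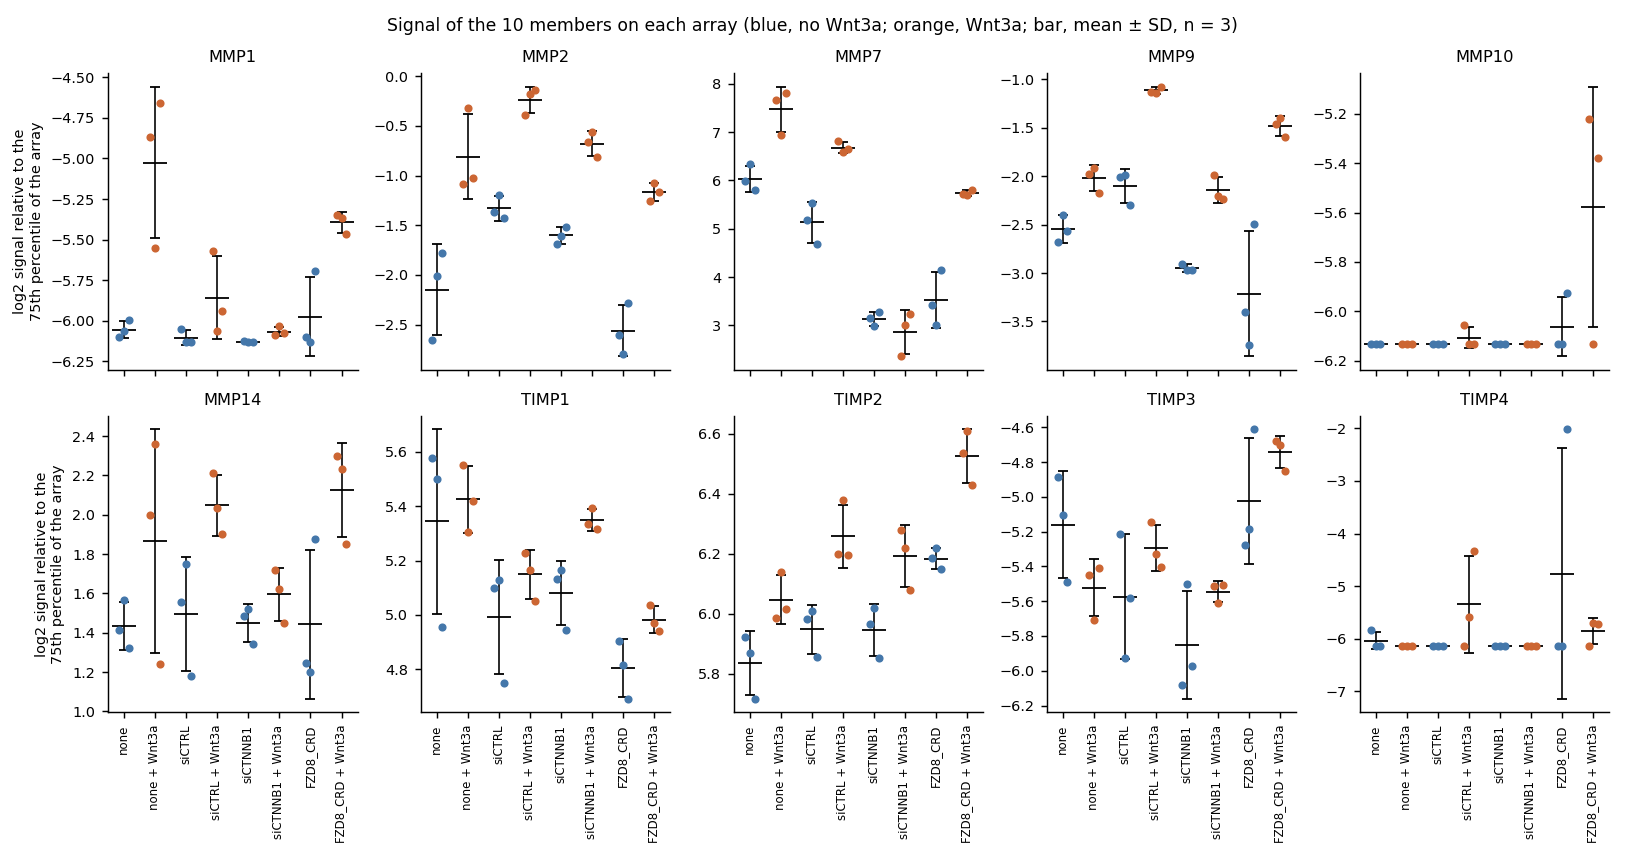
Log2 signal relative to the array's 75th percentile (y axis, a scale of its own in each panel) for the 10 members in the 8 conditions, with points for single arrays (blue without and orange with Wnt3a) and bars for mean and SD of 3 arrays. MMP7 lies between 2.36 and 7.81, and most arrays of MMP10 and TIMP4 lie at the floor of -6.13.

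Wnt3a was added in 4 settings, and the question in each is which genes answer the ligand. In untransfected cells 3 of the 8 tested members rose (MMP1, MMP2 and MMP7) and 0 fell, where limma called 5.6% of all genes; MMP1 passed the filter on dim probes only through this Wnt3a group and that with FZD8_CRD and Wnt3a, so its call was favoured by the filter, and without it 2 members rose. After control siRNA 4 rose (MMP2, MMP7, MMP9 and TIMP2) and 0 fell, against 2.11% of all genes. After CTNNB1 siRNA limma called 0 members, against 0.0406% of all genes, and 4 members had an unadjusted p under 0.05. With FZD8_CRD 4 rose (MMP2, MMP7, MMP9 and TIMP2) and 0 fell, against 8.29% of all genes. With the slide as a block limma also called TIMP2 in untransfected cells (adjusted p 0.0133) and MMP2 after CTNNB1 siRNA (0.039). With FZD8_CRD the block added MMP1 (0.048) and MMP14 (0.0296). The median change of the 8 tested members was 0.48, 0.43, 0.26 and 0.63 in these 4 settings, beside 0.01, 0.02, 0.03 and 0.02 over all genes. Whether the Wnt3a response differed between settings was tested directly: limma called 0 members for CTNNB1 siRNA against control siRNA, where 0.0162% of all genes were called and 1 member had an unadjusted p under 0.05, and 0 members for FZD8_CRD against none, where 0.073% of all genes were called and again 1 member had an unadjusted p under 0.05.

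**Figure D2:**
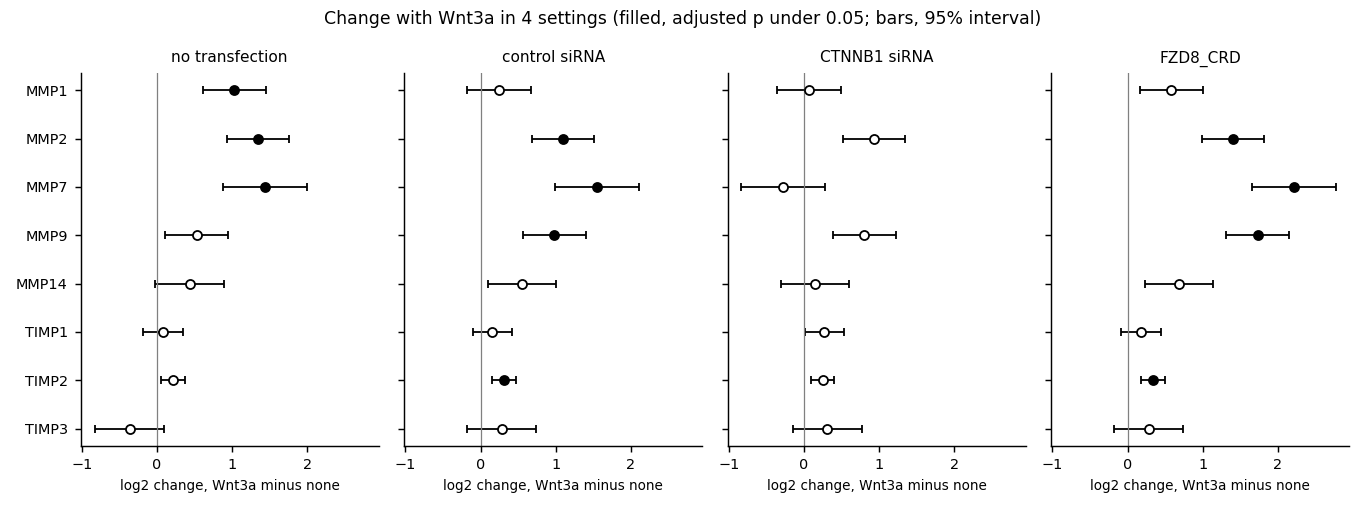
Log2 change with Wnt3a (x axis; points, estimate; bars, 95% interval of the limma fit) for the 8 tested members (y axis) in untransfected cells, after control siRNA, after CTNNB1 siRNA and with FZD8_CRD, filled where adjusted p was under 0.05. MMP7 stands at 1.44, 1.55, -0.28 and 2.21 in the 4 panels.

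The plot of the Wnt3a changes shows MMP2 on the same side of 0 in all 4 panels (1.34, 1.09, 0.93 and 1.40), with the third change not called. The TIMP1 and TIMP3 intervals crossed 0 in each panel, except that of TIMP1 after CTNNB1 siRNA (0.01 to 0.53, adjusted p 0.464). These values depend on the scale: relative to the spike-in probes of the array the median of all genes moved by -0.38 with Wnt3a in untransfected cells, 0.18 after control siRNA, -0.10 after CTNNB1 siRNA and -0.07 with FZD8_CRD, and on that scale no member was called in untransfected cells.

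The collagenase MMP1 (NM_002421), which cuts fibrillar collagens, was dim. Its signal was -6.10, -6.07 and -6.00 in untransfected cells, where 0 of 3 arrays were well above background, and -4.87, -5.55 and -4.66 with Wnt3a, where 3 of 3 were. The groups did not overlap, and with the untreated arrays taken at their detection limit the level with Wnt3a was at least 1.97-fold higher (adjusted p 0.00785, higher on 3 of 3 slides). Since MMP1 was tested only because these Wnt3a arrays and those with FZD8_CRD and Wnt3a were well above background, the p-value is not independent of that choice. With FZD8_CRD the signal was -6.10, -6.13 and -5.70, and -5.35, -5.37 and -5.47 with Wnt3a as well, a difference of 0.58 (SE 0.20) without overlap that was not called (adjusted p 0.085; 0.048 with the slide as a block; 1.39 and 0.0436 with a floor of 1 intensity unit; 0.72 and 0.024 without FZD8_CRD replicate 3). After control siRNA and after CTNNB1 siRNA the values with Wnt3a were -5.57, -6.06 and -5.94, and -6.09, -6.04 and -6.08, with 1 and 0 arrays well above background. In Wnt3a-treated cells MMP1 was lower with control siRNA than without transfection (log2 difference -0.83, SE 0.20, adjusted p 0.0151), a comparison in which 1 of 3 control siRNA arrays was well above background and whose higher group is one that let MMP1 pass the filter, so that this p-value too depends on that choice. With Wnt3a in both, FZD8_CRD arrays differed from untransfected ones by -0.37 (adjusted p 0.166), and by -0.63 without Wnt3a replicate 2 (adjusted p 0.0114). In order, Wnt3a alone and Wnt3a with FZD8_CRD came first, with overlapping arrays, and the 6 other conditions followed, each overlapping its neighbour.

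For MMP1 the Wnt3a call in untransfected cells held in 16 of 21 alternatives (adjusted p from 0.00184 to 0.449): it ended with spike-in scaling (0.63, adjusted p 0.275), with another background correction (log2 change 0.29, adjusted p 0.115), with only the arrays compared, and without replicate 1 or 2 of every condition. The control siRNA call held in 11 of 21 (adjusted p from 0.000582 to 0.488) and ended, among others, with spike-in scaling (-0.56, 0.488), another background correction (-0.23, 0.216), without replicate 3 of every condition (-0.61, 0.207), without Wnt3a replicate 1 (-0.75, 0.097) or 3 (-0.65, 0.0763) and without control siRNA with Wnt3a replicate 2 (-0.73, 0.0929) or 3 (-0.79, 0.0584).

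MMP2 (NM_004530), gelatinase A, cuts denatured and basement membrane collagens and is itself activated at the cell surface by MMP14 with TIMP2. Its signal was -2.66, -2.01 and -1.78 in untransfected cells and -1.09, -0.32 and -1.02 with Wnt3a. After control siRNA it was -1.37, -1.19 and -1.43, and -0.38, -0.18 and -0.14 with Wnt3a. After CTNNB1 siRNA it was -1.69, -1.60 and -1.52, and -0.66, -0.56 and -0.81 with Wnt3a. In each of these pairs every Wnt3a array lay above every array without it. With FZD8_CRD the values were -2.60, -2.80 and -2.29, and -1.25, -1.08 and -1.16 with Wnt3a, again with no overlap.

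MMP2 rose 2.53-fold with Wnt3a in untransfected cells (log2 change 1.34, SE 0.20, adjusted p 0.000859), 2.13-fold after control siRNA (1.09, adjusted p 0.0072) and 2.64-fold with FZD8_CRD (1.40, adjusted p 0.000544), each on 3 of 3 slides. After CTNNB1 siRNA the change of 0.93 was not called (adjusted p 0.0936), but was with the slide as a block (adjusted p 0.039). The difference between the responses after CTNNB1 and control siRNA was -0.17 (95% interval -0.75 to 0.42, adjusted p 1.0), and between FZD8_CRD and none 0.06 (-0.52 to 0.64, adjusted p 0.984), and their signs changed when replicates or, for the second, single arrays were left out. Control siRNA alone raised MMP2 by 0.82 over untransfected cells (SE 0.20, adjusted p 0.0051, higher on 3 of 3 slides). The highest level was with control siRNA and Wnt3a and the lowest with FZD8_CRD alone. Along that order the arrays of neighbours overlapped from CTNNB1 siRNA with Wnt3a through Wnt3a alone and FZD8_CRD with Wnt3a to control siRNA alone, and again between untransfected cells and FZD8_CRD alone.

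The MMP2 calls for Wnt3a held in 19 of 23 alternatives in untransfected cells (adjusted p from 0.00032 to 0.419), 19 of 23 after control siRNA (0.00301 to 0.184) and 20 of 23 with FZD8_CRD (3.76e-05 to 0.191); the endings were spike-in scaling in untransfected cells (0.94, adjusted p 0.0747), only the arrays compared in untransfected cells and with FZD8_CRD, replicate 1 or 2 of every condition left out, and, after control siRNA, replicate 3 of every condition (adjusted p 0.0513) or control siRNA replicate 3 left out (1.04, adjusted p 0.0565). The control siRNA call ended with spike-in scaling (0.54, adjusted p 0.271), with only the arrays compared (adjusted p 0.0638) and without replicate 1 of every condition (0.58, adjusted p 0.186), over a range of 0.00134 to 0.271. With Wnt3a in both, the control siRNA difference was 0.57 (adjusted p 0.0747; 0.0359 with the slide as a block; 0.82 and 0.00506 without Wnt3a replicate 2), and FZD8_CRD alone differed from untransfected cells by -0.41 (adjusted p 0.102), called with spike-in scaling (-0.80, 0.0313) and without untreated replicate 1 (-0.67, 0.00808) or FZD8_CRD replicate 3 (-0.55, 0.0468).

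MMP9 (NM_004994), gelatinase B, shares these substrates. Its signal was -2.68, -2.40 and -2.57 in untransfected cells and -1.98, -1.91 and -2.17 with Wnt3a. After control siRNA it was -2.01, -1.98 and -2.30, and -1.13, -1.14 and -1.08 with Wnt3a. After CTNNB1 siRNA it was -2.91, -2.97 and -2.97, and -1.99, -2.20 and -2.23 with Wnt3a. The Wnt3a arrays lay above their partners in all 3 settings. With FZD8_CRD the values were -3.40, -3.74 and -2.49, with replicate 3 well above the other 2, and -1.46, -1.40 and -1.59 with Wnt3a.

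MMP9 rose 1.98-fold with Wnt3a after control siRNA (log2 change 0.98, SE 0.20, adjusted p 0.015) and 3.32-fold with FZD8_CRD (1.73, adjusted p 0.000121), on 3 of 3 slides each. The changes of 0.53 in untransfected cells (adjusted p 0.124) and 0.80 after CTNNB1 siRNA (adjusted p 0.18) were not called; without replicate 3 of every condition both were (0.59, adjusted p 0.00971, and 0.84, adjusted p 0.032). CTNNB1 siRNA lowered MMP9 against control siRNA by -0.85 without Wnt3a (adjusted p 0.00869) and by -1.03 with it (adjusted p 0.00171), with no overlap. The Wnt3a response after CTNNB1 siRNA differed from that after control siRNA by -0.18 (95% interval -0.77 to 0.41, adjusted p 1.0).

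With FZD8_CRD alone MMP9 was lower than in untransfected cells (-0.66, SE 0.20, adjusted p 0.0112), yet the arrays overlapped and slide 3 gave 0.07 where slides 1 and 2 gave -0.72 and -1.34. Without FZD8_CRD replicate 1 the difference was -0.57 (adjusted p 0.0507), and without replicate 2 it was -0.40 (adjusted p 0.1), and with quantile normalization -0.46 (adjusted p 0.0584). Without FZD8_CRD replicate 3 it was -1.02 (adjusted p 8.71e-06). In Wnt3a-treated cells it was higher with FZD8_CRD than without (0.54, SE 0.20, adjusted p 0.0403, 3 of 3 slides). The Wnt3a response with FZD8_CRD exceeded that without by 1.20 (95% interval 0.61 to 1.79), which was not called (adjusted p 0.0934; 0.0589 with the slide as a block); it was called without FZD8_CRD replicate 3 (1.56, adjusted p 1.81e-05), without untreated replicate 3 (1.21, adjusted p 0.0448) and without replicate 3 of every condition (1.55, adjusted p 0.000693). Control siRNA with Wnt3a gave the highest level and FZD8_CRD alone the lowest, and the arrays of neighbours overlapped from Wnt3a alone through control siRNA to CTNNB1 siRNA with Wnt3a and between CTNNB1 siRNA and FZD8_CRD alone. With Wnt3a present, control siRNA arrays were above untransfected ones by 0.91 (SE 0.20, adjusted p 0.00987), and without Wnt3a by 0.45 (adjusted p 0.119; 0.0423 in the deposited values; 0.0123 without replicate 3 of every condition).

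**Figure D3:**
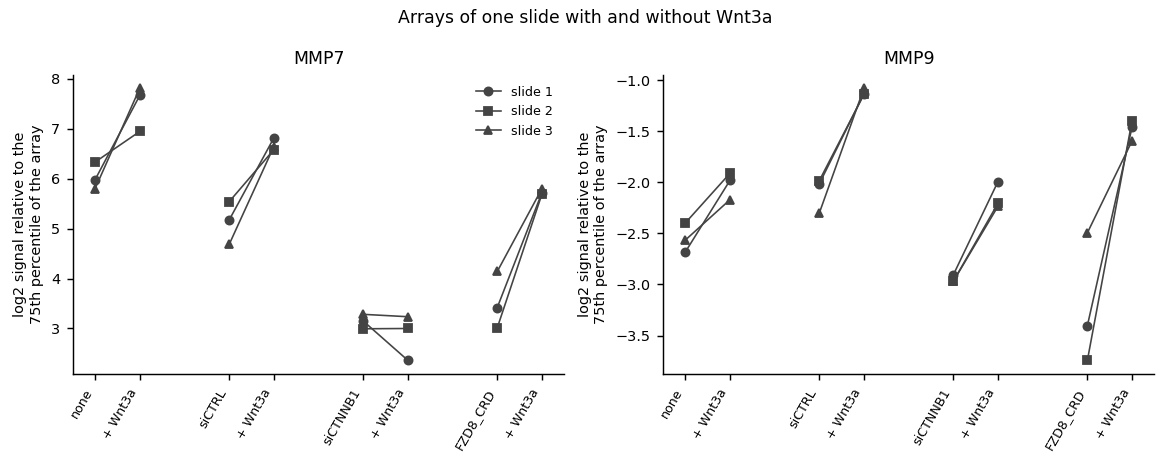
Log2 signal of MMP7 and MMP9 (y axis, relative to the array's 75th percentile) without and with Wnt3a in the 4 settings, with lines joining the 2 arrays of 1 slide. MMP9 lines go up on 3 of 3 slides in each setting, while MMP7 lines after CTNNB1 siRNA change by -0.79, 0.01 and -0.05.

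The MMP9 call after control siRNA held in 16 of 23 alternatives (adjusted p from 0.00651 to 0.342) and was lost without control siRNA replicate 1 (1.03, 0.0596) or 3 (0.88, 0.0926) and without control siRNA with Wnt3a replicate 2 (0.99, 0.0704) or 3 (0.96, 0.064); that with FZD8_CRD held in 20 of 23 (3.13e-09 to 0.232). The CTNNB1 siRNA calls held in 20 of 23 (0.00169 to 0.312) and, with Wnt3a, 21 of 23 (0.000465 to 0.0743), the FZD8_CRD calls in 17 of 23 (8.71e-06 to 0.359) and, with Wnt3a, 12 of 23 (0.00591 to 0.343), the last ending without any 1 of 5 of its 6 arrays (Wnt3a replicates 1 and 3, 0.0788 and 0.12; FZD8_CRD with Wnt3a replicates 1, 2 and 3, 0.0926, 0.113 and 0.053). The control siRNA call with Wnt3a held in 18 of 23 (0.00434 to 0.218) and ended without Wnt3a replicate 1 (0.93, 0.0574) or control siRNA with Wnt3a replicate 2 (0.92, 0.0524).

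MMP7 (NM_002423), matrilysin, is a small MMP of epithelial cells that cuts a broad range of matrix and cell surface proteins. Since MMP7 had the largest range of the members and shares a promoter motif with MMP10, these 2 promoters are printed, from RefSeq on GRCh38.p14, 250 bases before to 50 after the start; the capitals mark the AP-1 motif TGANTCA. MMP7 lies at chr11:102530698-102530997 and MMP10 at chr11:102780579-102780878, both on the minus strand and written 5′ to 3′ in the direction of the gene.
MMP7: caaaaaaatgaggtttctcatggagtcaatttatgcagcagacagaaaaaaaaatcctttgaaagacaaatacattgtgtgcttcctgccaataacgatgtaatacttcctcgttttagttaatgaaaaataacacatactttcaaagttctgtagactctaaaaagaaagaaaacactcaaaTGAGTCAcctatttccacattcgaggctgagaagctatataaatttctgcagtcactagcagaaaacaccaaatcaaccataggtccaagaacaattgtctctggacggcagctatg
MMP10: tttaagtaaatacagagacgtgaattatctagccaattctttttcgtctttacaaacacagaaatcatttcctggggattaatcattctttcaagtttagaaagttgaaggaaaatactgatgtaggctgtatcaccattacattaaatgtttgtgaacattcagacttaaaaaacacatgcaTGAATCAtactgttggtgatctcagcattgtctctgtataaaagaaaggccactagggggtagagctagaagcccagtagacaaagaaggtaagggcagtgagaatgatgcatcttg

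In both the motif starts 67 bases before the start. Promoters of 6 of the 10 members were in the table used (MMP7, MMP10, MMP14, TIMP1, TIMP3 and TIMP4; those of MMP1, MMP2, MMP9 and TIMP2 were not used here), and the AP-1 letters stood in 2 of the 6, beside 2707 of 35116 promoters (7.71%) in all. The TCF/LEF letters CTTTGAT, searched like TGANTCA on both strands, stood in 0 of the 6 and in 919 of 35116 (2.62%). Only this fixed spelling was searched. Near spellings such as CTTTGAA, which the MMP7 promoter above holds, were not counted. A match describes letters, not a binding site, and a missing match says nothing of the factor.

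MMP7 signal was 5.98, 6.33 and 5.80 in untransfected cells and 7.67, 6.95 and 7.81 with Wnt3a. After control siRNA it was 5.17, 5.54 and 4.68, and 6.82, 6.58 and 6.64 with Wnt3a. With FZD8_CRD it was 3.42, 3.01 and 4.14, and 5.72, 5.69 and 5.80 with Wnt3a. In these 3 settings the Wnt3a arrays were all above their partners. After CTNNB1 siRNA the values were 3.15, 2.99 and 3.28 without and 2.36, 3.00 and 3.24 with Wnt3a, and the groups overlapped.

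Wnt3a raised MMP7 2.71-fold in untransfected cells (log2 change 1.44, SE 0.27, adjusted p 0.00561), 2.92-fold after control siRNA (1.55, adjusted p 0.00631) and 4.63-fold with FZD8_CRD (2.21, adjusted p 0.00019), each on 3 of 3 slides. After CTNNB1 siRNA the change was -0.28 (95% interval -0.84 to 0.28, adjusted p 0.835). The difference of this response from that after control siRNA was -1.83 (95% interval -2.62 to -1.03; -2.43, -1.04 and -2.01 on the 3 slides), but its adjusted p over all genes was 0.165, and 0.136 with the slide as a block, so it was not called. The response with FZD8_CRD differed from that without by 0.78 (95% interval -0.02 to 1.57, adjusted p 0.409), and without replicate 3 of every condition by 1.34 (adjusted p 0.0312).

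CTNNB1 siRNA lowered MMP7 3.97-fold against control siRNA (log2 difference -1.99, SE 0.27, adjusted p 7.51e-05) and, in Wnt3a-treated cells, 14.1-fold (-3.81, SE 0.27, adjusted p 1.79e-08). FZD8_CRD lowered it 5.71-fold against untransfected cells (-2.51, adjusted p 9.23e-07) and 3.34-fold in Wnt3a-treated cells (-1.74, adjusted p 5.32e-05). No arrays overlapped in these 4 comparisons, and the 4 calls held in 23 of 23 alternatives, with the smallest adjusted p at 6.89e-05, 1.55e-11, 1.16e-08 and 1.64e-05 and the largest at 0.0277, 0.000974, 0.00337 and 0.0163. Control siRNA alone was below untransfected cells by -0.91 (SE 0.27, adjusted p 0.0192).

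**Figure D4:**
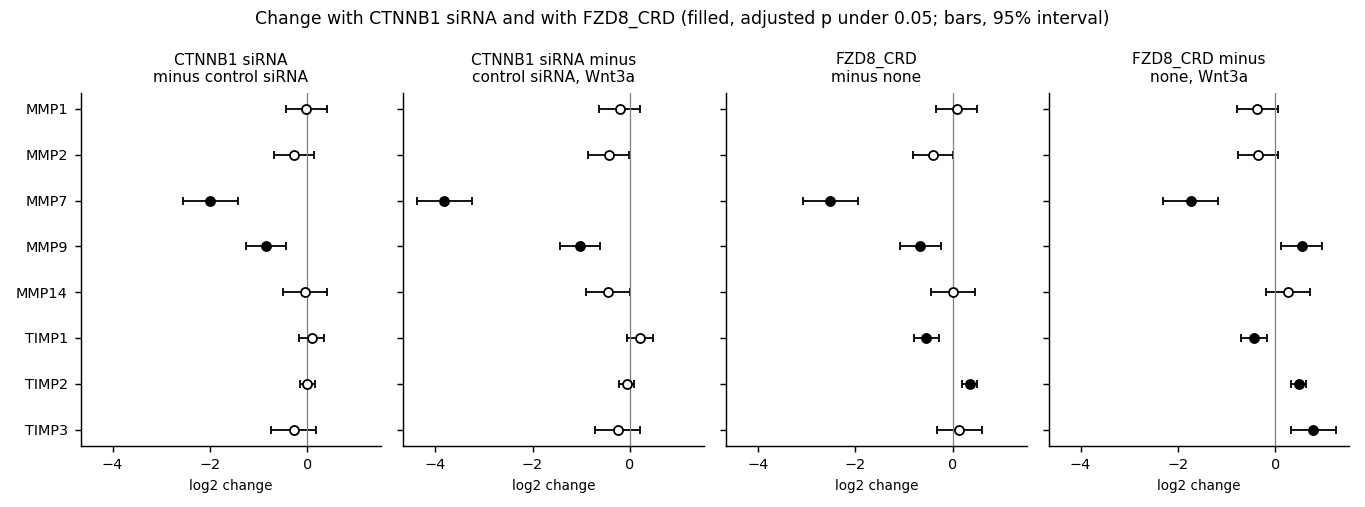
Log2 change (x axis; points, estimate; bars, 95% interval of the limma fit) of the 8 tested members (y axis) with CTNNB1 siRNA against control siRNA and with FZD8_CRD against none, without and with Wnt3a, filled where adjusted p was under 0.05. MMP7 stands at -1.99, -3.81, -2.51 and -1.74, and TIMP2 with FZD8_CRD at 0.35 and 0.48, of which the 0.35 becomes -0.04 with spike-in scaling.

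From highest to lowest, MMP7 ran from Wnt3a alone through control siRNA with Wnt3a, untransfected cells, FZD8_CRD with Wnt3a and control siRNA to FZD8_CRD, CTNNB1 siRNA and CTNNB1 siRNA with Wnt3a. The arrays of neighbours overlapped only among the last 3. The Wnt3a calls held in 19 of 23 alternatives in untransfected cells (adjusted p from 0.00333 to 0.3), 20 of 23 after control siRNA (0.00397 to 0.285) and 20 of 23 with FZD8_CRD (1.5e-06 to 0.191), and ended without replicate 1 or 2 of every condition, with spike-in scaling in untransfected cells, with only the arrays compared in untransfected cells and with FZD8_CRD, and without control siRNA replicate 3 (1.32, adjusted p 0.0565). The call of control siRNA against untransfected cells held in 16 of 23 (0.0118 to 0.199) and ended, among others, without untreated replicate 1 (-0.94, adjusted p 0.0502) or 2 (-0.76, 0.0866) or control siRNA replicate 3 (-0.68, 0.113). With Wnt3a in both, that difference was -0.80 without overlap (adjusted p 0.0701), and -1.06 without Wnt3a replicate 2 (adjusted p 0.0118).

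MMP10 (NM_002425), stromelysin 2, cuts proteoglycans and activates other MMPs. It was at the floor on 20 of 24 arrays and well above background on 2, both with FZD8_CRD and Wnt3a, where the values were -5.22, -6.13 and -5.38. It was not tested, and no order can be given for conditions at the floor.

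MMP14 (NM_004995), the membrane-type MMP that cuts collagen at the cell surface and activates MMP2, lay between 1.18 and 2.36 on all 24 arrays. Its signal was 1.41, 1.56 and 1.32 in untransfected cells and 2.00, 2.36 and 1.24 with Wnt3a, where replicate 3 lay below the 3 untreated arrays. After control siRNA it was 1.56, 1.75 and 1.18, and 2.21, 2.03 and 1.90 with Wnt3a. With FZD8_CRD it was 1.25, 1.20 and 1.88, and 2.30, 2.23 and 1.85 with Wnt3a, so that 1 array of each overlapped. The values after CTNNB1 siRNA ran from 1.34 to 1.72 with and without Wnt3a.

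MMP14 was called in the F test alone and in 0 of the 10 pairwise comparisons and 0 of the 2 differences of Wnt3a responses by limma, with an unadjusted p under 0.05 in 2 of the pairwise comparisons. Its Wnt3a change was 0.43 in untransfected cells (adjusted p 0.264), 0.55 after control siRNA (0.228), 0.15 after CTNNB1 siRNA (0.933) and 0.68 with FZD8_CRD (SE 0.22, adjusted p 0.0584; 0.0296 with the slide as a block). Leaving out single arrays decided the first and the last of these: without Wnt3a replicate 3 the change in untransfected cells was 0.75 (adjusted p 0.0164), and without FZD8_CRD replicate 3 the change with FZD8_CRD was 0.90 (adjusted p 0.00659). In Wnt3a-treated cells CTNNB1 siRNA differed from control siRNA by -0.45 (adjusted p 0.233), called with only the arrays compared (0.0472) and without replicate 3 of every condition (0.0225). The order ran from FZD8_CRD with Wnt3a to untransfected cells, and every neighbour overlapped the next.

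TIMP1 (NM_003254), a secreted inhibitor of most MMPs, lay between 4.69 and 5.58. Its values were 5.58, 5.50 and 4.95 in untransfected cells, 5.10, 5.13 and 4.75 after control siRNA and 4.90, 4.82 and 4.69 with FZD8_CRD. With Wnt3a in the medium they were 5.55, 5.31 and 5.42 in untransfected cells, 5.23, 5.17 and 5.05 after control siRNA and 5.04, 4.97 and 4.94 with FZD8_CRD. The FZD8_CRD arrays were below all untransfected arrays both without and with Wnt3a. CTNNB1 siRNA values were 5.13, 5.17 and 4.94, and 5.34, 5.39 and 5.32 with Wnt3a.

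FZD8_CRD lowered TIMP1 by -0.54 (SE 0.13, adjusted p 0.00173) and, with Wnt3a, by -0.44 (adjusted p 0.00869), on 3 of 3 slides each. No Wnt3a change was called for TIMP1, the values being 0.08, 0.16, 0.27 and 0.18 in the 4 settings (adjusted p 0.826, 0.719, 0.464 and 0.499), and the first became -0.31 with spike-in scaling. Control siRNA against untransfected cells gave -0.35 with overlapping arrays (adjusted p 0.0499; 0.0077 with the slide as a block). That call held in 7 of 23 alternatives (adjusted p from 0.000657 to 0.392) and was lost without untreated replicate 1 (-0.24, 0.276) or 2 (-0.27, 0.189) and without control siRNA replicate 1 (-0.41, 0.0584) or 3 (-0.23, 0.256). The FZD8_CRD calls held in 20 of 23 (1.49e-05 to 0.0771) and 18 of 23 (0.00079 to 0.273), the latter lost without Wnt3a replicate 1 (-0.38, adjusted p 0.0505). Neighbours in the order of TIMP1 levels overlapped except the last pair, FZD8_CRD with Wnt3a over FZD8_CRD alone.

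TIMP2 (NM_003255), which blocks MMPs and also helps MMP14 to activate MMP2, was 5.92, 5.87 and 5.72 in untransfected cells and 5.99, 6.14 and 6.02 with Wnt3a. After control siRNA it was 5.98, 6.01 and 5.86, and 6.20, 6.38 and 6.20 with Wnt3a. With FZD8_CRD it was 6.19, 6.22 and 6.15, and 6.54, 6.61 and 6.43 with Wnt3a. In each pair the Wnt3a arrays were above their partners, and both FZD8_CRD groups were above the untransfected ones. After CTNNB1 siRNA it was 5.97, 6.02 and 5.85, and 6.28, 6.22 and 6.08 with Wnt3a.

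TIMP2 rose 1.24-fold with Wnt3a after control siRNA (log2 change 0.31, SE 0.08, adjusted p 0.0362) and 1.27-fold with FZD8_CRD (0.34, adjusted p 0.0088). In untransfected cells the change was 0.21 (adjusted p 0.103; 0.0133 with the slide as a block; 0.29 and 0.0215 with quantile normalization; 0.29 and 0.033 in the deposited values; -0.18 with spike-in scaling), and after CTNNB1 siRNA 0.25 (adjusted p 0.268). FZD8_CRD raised it 1.27-fold alone (0.35, adjusted p 0.000946) and 1.39-fold with Wnt3a (0.48, adjusted p 6.34e-05), on 3 of 3 slides, and with spike-in scaling, where the median of all genes moved by -0.48 and -0.17, these were -0.04 and 0.39 and not called (adjusted p 0.914 and 0.414). Control siRNA against none with Wnt3a gave 0.21 (adjusted p 0.0849; 0.00876 with the slide as a block). The call after control siRNA held in 8 of 23 alternatives (0.0028 to 0.925) and in 0 of the 9 that left out a replicate or an array, where the change ran between 0.25 and 0.36. With FZD8_CRD the Wnt3a call held in 16 of 23 (0.000755 to 1.0), lost without FZD8_CRD replicate 1 (0.34, 0.0554) or FZD8_CRD with Wnt3a replicate 2 (0.30, 0.054). The highest level was with FZD8_CRD and Wnt3a, apart from the next, and the other neighbours overlapped except FZD8_CRD alone over Wnt3a alone.

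TIMP3 (NM_000362), an inhibitor bound to the matrix, was dim, with values between -6.08 and -4.61 and 19 of 24 arrays well above background. In Wnt3a-treated cells it was -5.45, -5.71 and -5.41 without and -4.68, -4.70 and -4.85 with FZD8_CRD, a rise of 1.71-fold (log2 0.78, SE 0.22, adjusted p 0.00871, 3 of 3 slides) with no overlap. In the 11 other comparisons limma called it in 0 and 0 had an unadjusted p under 0.05. The call held in 17 of 21 alternatives (adjusted p from 0.000632 to 0.28), and with another background correction the change was 0.16 (adjusted p 0.28). Untreated cells gave -4.89, -5.10 and -5.49 and FZD8_CRD alone -5.28, -5.18 and -4.61. Neighbours in its order overlapped except control siRNA with Wnt3a over Wnt3a alone.

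TIMP4 (NM_003256), an inhibitor with narrow tissue expression, was at the floor on 18 of 24 arrays and well above background on 3. Its highest values were -2.01 in FZD8_CRD replicate 3, -4.33 in control siRNA with Wnt3a replicate 3 and -5.58 in replicate 2 of that group. The 2 other FZD8_CRD arrays were at -6.13. It was not tested.

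Read by comparison, CTNNB1 siRNA against control siRNA lowered 2 of the 8 tested members (MMP7 and MMP9) and raised 0, where limma called 10.6% of all genes, and with Wnt3a again 2 and 0, against 10.6%. FZD8_CRD against none lowered 3 (MMP7, MMP9 and TIMP1) and raised 1 (TIMP2), against 41.9% of all genes. With Wnt3a it lowered 2 (MMP7 and TIMP1) and raised 3 (MMP9, TIMP2 and TIMP3), against 37.2%. Called members were thus 4 of 8 without and 5 of 8 with Wnt3a. Control siRNA against no transfection, a measure of electroporation and siRNA delivery, raised 1 (MMP2) and lowered 2 (MMP7 and TIMP1), against 22.3%, and with Wnt3a raised 1 (MMP9) and lowered 1 (MMP1, whose test depends on the filter as said above), against 9.04%. These comparisons share arrays with the Wnt3a comparisons and with each other, so they are not independent.

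Among 15967 other genes with a symbol, those most like each member over the 24 arrays were found by Pearson's r, a description of arrays that share conditions and slides. MMP7 ran closest to CLDN2 (0.966), SH3BGRL2 (0.938) and CD24 (0.933). MMP2 ran closest to FKBP7 (0.931), CDC42BPA (0.895) and PCDHGA8 (0.893), and MMP9 to TMEM63C (0.92), MMP19 (0.91) and GSEC (0.91). For MMP14 they included ARFGAP1 (0.919) and TMEM44 (0.903), and for MMP1 DCST1 (0.828), FAP (0.781) and FDCSP (0.769). TIMP1 was nearest to SIAH1 (0.894), CST3 (0.89) and TSPEAR-AS2 (0.867). Those near TIMP2 included MXRA7 (0.957) and NRBP1 (0.941), and TIMP3 to DENND1A (0.865), PGM3 (0.842) and HOOK2 (0.832).

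Of 17 other MMP genes 10 were tested, and Wnt3a raised 2 in untransfected cells, 2 after control siRNA, 0 after CTNNB1 siRNA in limma and 3 with FZD8_CRD, lowering none. The Wnt3a counts of this list and of those below stand beside 5.6%, 2.11%, 0.0406% and 8.29% of all genes called in these settings. Medians of the other MMP genes were 0.19, 0.20, -0.02 and 0.37. MMP3, stromelysin 1, was -2.54, -3.49 and -4.59 in untransfected cells and -1.37, -2.54 and -1.69 with Wnt3a, groups that overlapped (log2 change 1.67, adjusted p 0.0347). After control siRNA it was at or near the floor (-6.13, -6.02 and -6.05) and rose at least 3.85-fold with Wnt3a (adjusted p 0.0248). Control siRNA put MMP3 at least 5.54-fold below untransfected cells (adjusted p 0.000597), and CTNNB1 siRNA put it at least 7.64-fold above control siRNA (adjusted p 0.000209), at -3.02, -3.04 and -3.18, inside the range of untransfected cells. With FZD8_CRD it was -5.13, -5.86 and -3.58, and rose by 2.78 with Wnt3a (adjusted p 0.00143) with no overlap. Of these 3 FZD8_CRD arrays 2 were well above background, so the size of that rise rests partly on a signal near background. MMP13, a collagenase, rose in untransfected cells by 1.97 with Wnt3a (adjusted p 0.00759) and at least 2.95-fold after control siRNA (adjusted p 0.0326). Without Wnt3a it was at the floor on the 3 control siRNA, the 3 CTNNB1 siRNA and the 3 FZD8_CRD arrays. MMP19 and MMP28 rose with Wnt3a in the FZD8_CRD setting by 0.67 (adjusted p 0.00283) and 0.46 (adjusted p 0.0119).

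**Figure D5:**
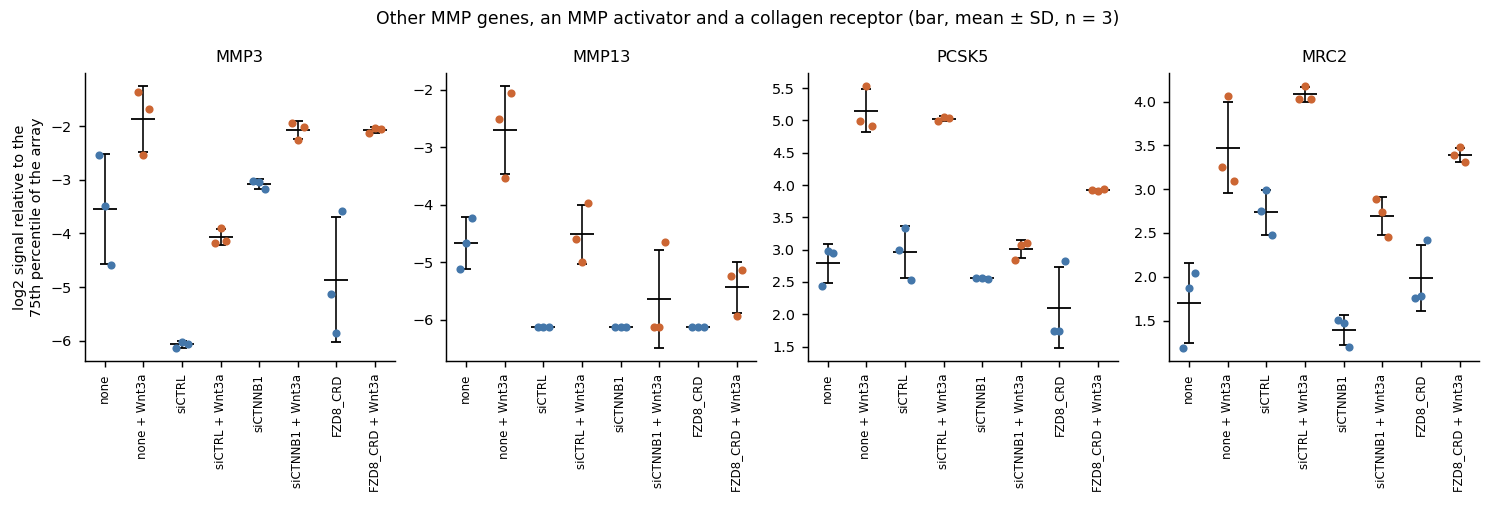
Log2 signal relative to the array's 75th percentile (y axis, a scale of its own in each panel) of MMP3, MMP13, PCSK5 and MRC2 in the 8 conditions, with points for arrays (blue without and orange with Wnt3a) and bars for mean and SD of 3 arrays. PCSK5 with Wnt3a lies between 4.92 and 5.53 in untransfected cells and between 2.84 and 3.11 after CTNNB1 siRNA.

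Of 10 other inhibitors and activators, all tested, Wnt3a raised 3, 3, 1 and 5 in the 4 settings and lowered 0 in limma, against 5.6%, 2.11%, 0.0406% and 8.29% of all genes called. PCSK5, a furin-like convertase, was 2.44, 2.98 and 2.95 in untransfected cells and 4.99, 5.53 and 4.92 with Wnt3a, with no overlap (log2 change 2.36, adjusted p 1.5e-05). Its change was 2.07 after control siRNA (adjusted p 0.000117), 0.45 after CTNNB1 siRNA (adjusted p 0.526) and 1.82 with FZD8_CRD (adjusted p 0.000217), and the difference of the responses after CTNNB1 and control siRNA was -1.62 (adjusted p 0.161). MRC2, a receptor that takes up cut collagen, rose in all 4 settings, by 1.77, 1.34, 1.30 and 1.40 (adjusted p 0.000259, 0.00631, 0.0499 and 0.00162), as the plot of the other proteases shows. CD44, a hyaluronan receptor that can hold MMPs at the cell surface, rose by 0.27, 0.48 and 0.31 in the settings other than CTNNB1 siRNA (0.09, not called). FURIN and TFPI2 rose with Wnt3a in the FZD8_CRD setting by 0.85 and 0.74, both with overlapping arrays, and TFPI2 changed by -0.08 on slide 3.

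The ADAM and ADAMTS proteases (23 of 28 tested) gave 3, 1, 0 and 5 rises and 0 falls in the 4 Wnt3a comparisons, with ADAM19 up by 1.22, 1.09 and 1.59 in the settings other than CTNNB1 siRNA (0.67, not called). ADAMTS5 (1.11) and ADAM12 (1.01, with overlapping arrays and slides at 1.26, 1.98 and -0.20) rose in untransfected cells, and ADAMTS6 (1.65; 2.19, 2.63 and 0.12 on the 3 slides, with 2 of 3 FZD8_CRD arrays well above background), ADAMTS16 (0.97; 1.38, 1.32 and 0.22) and ADAMTS10 (0.87; 0.91, 1.18 and 0.52) with FZD8_CRD. In the plasminogen system (8 of 8 tested) limma called 2 rises in untransfected cells, 0 after control siRNA and 0 after CTNNB1 siRNA, with 0 falls in these. PLAUR, the urokinase receptor, rose by 0.69 in untransfected cells and 0.83 with FZD8_CRD, PLAT by at least 1.84-fold in untransfected cells (adjusted p 0.0499), and PLAU by 0.75 with FZD8_CRD. The medians of these lists in untransfected cells were 0.05 and 0.11, beside 0.01 over all genes. After control siRNA, after CTNNB1 siRNA and with FZD8_CRD they were 0.09, 0.06 and 0.12 for the ADAM and ADAMTS list. For the plasminogen system they were 0.23, 0.31 and 0.71, beside 0.02, 0.03 and 0.02 over all genes.

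Among 10 cysteine and serine proteases of the matrix, all tested, rises numbered 2, 2, 0 and 3 and falls 0, 1, 0 and 1. FAP, a serine protease of activated fibroblasts, rose by 1.78, 1.69 and 2.01 in the settings other than CTNNB1 siRNA (1.30, adjusted p 0.179), and HTRA1 by 0.42, 0.45 and 0.48 (0.46 after CTNNB1 siRNA with no overlap, adjusted p 0.0684). CTSZ fell by 1.51 after control siRNA and CTSD by 0.57 with FZD8_CRD, where CTSK rose by 0.41. The AP-1 and ETS factors (14 of 14 tested) gave 1, 0, 0 and 3 rises and 1, 1, 0 and 2 falls, with FOSL2 up by 0.87 in untransfected cells, JUNB, ETS1 and JUN up by 0.90, 0.56 and 0.44 with FZD8_CRD, and ELF3 and JUND down by -0.88 and -0.50 there. On slide 3 JUNB, ETS1 and JUN changed by 0.17, 0.02 and 0.14. In each gene named from the protease, regulator and substrate lists as called for Wnt3a with FZD8_CRD, slide 3 gave the smallest change, and in many FZD8_CRD replicate 3 stood apart from the 2 others, as with FAP (-3.60, -3.55 and -1.75) and COL1A1 (-0.40, -0.26 and 1.37).

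The Wnt feedback and TCF/LEF genes (11 of 12 tested) gave 5, 5, 0 and 2 rises and 0, 0, 0 and 1 falls, with medians of 0.30, 0.60, 0.00 and 0.02. RNF43, a feedback ligase that removes Frizzled receptors, rose by 0.73, 1.02 and 0.81 outside CTNNB1 siRNA, and its response after CTNNB1 siRNA was lower than after control siRNA by -1.23 (adjusted p 0.0013). AXIN2 rose by 0.37 and 0.60 in untransfected cells and after control siRNA, TCF7 by 1.68, 1.40 and 1.64 outside CTNNB1 siRNA, LEF1 by 1.12 and 0.61 and NKD2 by 0.61 and 0.70 in the same 2 settings as AXIN2, and DKK1 fell by 0.88 with FZD8_CRD. Of the meprins and matrix substrates (10 of 12 tested) 7, 4, 0 and 5 rose and 1, 0, 0 and 0 fell. COL1A1 rose by 1.86, 2.19 and 2.65 and COL1A2 by 1.14, 1.80 and 2.22 in the settings other than CTNNB1 siRNA (the 2.22 against FZD8_CRD arrays of which 1 of 3 was well above background, so that its size depends on the floor), FN1 by 0.85, 1.03 and 0.90, COL3A1 by 0.93 and 1.05 in the settings without FZD8_CRD or CTNNB1 siRNA, VCAN by 1.38 in untransfected cells and COL4A1 by 1.00 with FZD8_CRD. The difference between the responses after CTNNB1 and control siRNA was called by limma for RNF43 alone in these 8 lists of proteases, regulators and substrates, and for 0 of their genes between FZD8_CRD and none, beside 822 and 3128 of all genes at an unadjusted p under 0.05. For the other genes a call in 1 setting and not in another therefore shows neither that the responses differ nor that they are alike. In limma the counts of 0 after CTNNB1 siRNA stand beside 2575 of all genes at an unadjusted p under 0.05.

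The line was checked against markers. All 8 hepatocyte markers were well above background on 24 of 24 arrays. Their summed signal, in multiples of the array's 75th percentile, follows the brighter probes, ranks no gene against another and can be read only between arrays. It was 1490, 1100 and 775 in untransfected cells and 906, 394 and 910 with Wnt3a. It was 406, 373 and 388 after control siRNA, 267, 191 and 260 with Wnt3a, 624, 473 and 597 after CTNNB1 siRNA and 283, 389 and 495 with Wnt3a. With FZD8_CRD it was 365, 245 and 369, and 396, 388 and 382 with Wnt3a. Against untransfected cells 8 of 8 fell with control siRNA and 8 of 8 with FZD8_CRD, where limma called 22.3% and 41.9% of all genes. MMP7 and TIMP1 also fell in both comparisons and MMP9 with FZD8_CRD, while MMP2 rose with control siRNA and TIMP2 with FZD8_CRD. In Wnt3a-treated cells 4 and 4 of the markers fell in these comparisons, against 9.04% and 37.2% of all genes called. With Wnt3a limma called 0, 0 and 0 of them in the first 3 settings, while with FZD8_CRD 2 rose, APOA1 by 2.22 and TTR by 2.62 (0.04 and 0.12 on slide 3), where MMP2, MMP7, MMP9 and TIMP2 rose too. The median Wnt3a change of these markers was -0.90, -0.32, -0.51 and 0.89 in the 4 settings, beside 0.01, 0.02, 0.03 and 0.02 over all genes. Their part in the member results was not tested, and in these bulk samples fewer cells of a type and less RNA per cell cannot be told apart.

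Of 9 fibroblast and myofibroblast markers, all tested, 6 were well above background on every array. Their summed signal was 50.3, 69.3 and 58.0 in untransfected cells and 97.6, 93.8 and 99.6 with Wnt3a, 45.0, 51.6 and 37.0 after control siRNA and 64.5, 64.4 and 59.5 with Wnt3a. It was 25.0, 23.0 and 21.2 after CTNNB1 siRNA and 26.2, 25.9 and 25.0 with Wnt3a, and 39.4, 36.9 and 32.1 with FZD8_CRD and 46.5, 45.3 and 44.2 with Wnt3a. Wnt3a raised 5, 2, 0 and 5 of the 9 in the 4 settings, against 5.6%, 2.11%, 0.0406% and 8.29% of all genes called. MMP2 and MMP7 were called up where markers were. After CTNNB1 siRNA, however, MMP2 changed by 0.93 without overlap (adjusted p 0.0936 in limma). Control siRNA against none raised 1 and lowered 3 of the markers, while MMP2 rose. CTNNB1 siRNA lowered 5 of the markers without and 6 with Wnt3a, against 10.6% of all genes called in each, and MMP7 and MMP9 fell there. FZD8_CRD raised 2 and lowered 3 of the markers, against 41.9% of all genes called, and with Wnt3a raised 3 and lowered 3, against 37.2%. LUM was called for the difference of the Wnt3a response between FZD8_CRD and none (-1.42, adjusted p 0.0467). The list shares COL1A1, COL1A2 and DCN with the matrix substrates above, and the biliary list shares SPP1 with them. Its part in these results was not tested.

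Biliary markers (5 of 6 tested, summed signal 228 to 387) gave 0, 0, 0 and 0 rises in limma and 1 fall, SPP1 in untransfected cells, with Wnt3a, and EPCAM was well above background on 1 array. Endothelial markers (5 of 5 tested, summed signal 0.783 to 4.22) gave 1 rise, of TEK with overlapping arrays, and 1 fall, of KDR, both with FZD8_CRD. TEK was well above background on 5 arrays. It passed the filter on dim probes only through the group with FZD8_CRD and Wnt3a, so its call was favoured by the filter. Of 6 blood and macrophage markers 4 were tested, CD163 was well above background on 1 array and LYZ was not analysed here. Their summed signal ran from 2.8 to 6.77, and Wnt3a raised CSF1R in untransfected cells and CSF1R and CD68 with FZD8_CRD, while CTNNB1 siRNA lowered 2 of the 4 without and 2 with Wnt3a.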

How the data were processed

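Expression was read from 24 one-colour arrays of HepaRG cells, 3 for each of 8 conditions, with groups taken from the sample labels. The scanner output holds 1 intensity per spot on a linear scale, which per the file headers had its background subtracted and its spatial trend removed by Feature Extraction, and arrays were not scaled to one another. The authors also deposited a table of log2 values for 25443 probes, relative to the 75th percentile and centred on each probe's median, which was used as an alternative (Pearson r 0.980 with the scanner values). The number of arrays limits the precision of every value, and between 58.3% and 66.5% of the spots of an array were well above background.

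Of 62976 spots, those not controls held 50683 probes. Spots marked as outliers were left out, repeated spots averaged, and signals taken as log2 relative to the array's 75th percentile with a floor of -6.13, which is 1.43% of that percentile. A probe stayed in (31067 did) if some condition had it well above background in each of its 3 replicates, and the brightest stood for its gene (24648 genes, 16001 with a symbol), leaving 41 missing values. Condition means were estimated in limma 3.58.1 (R 4.3.3) with a trend, p-values were adjusted by Benjamini and Hochberg's method across the 24648 genes, and intervals are 95% intervals of that fit. Arrays with the same replicate number sat on 1 slide and shared part of their noise (mean r of the residuals 0.384, against -0.191 for arrays of different slides), so within-slide differences and a fit with the slide as a block are given. The median SD within a condition was 0.120 to 0.212. Tables were made with data.table (version 1.17.8), pandas 2.3.3 and numpy 2.4.6, and figures matplotlib 3.10.9 in Python 3.11.15. The fit was also tested on simulated data.

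The alternatives were quantile normalization, scaling to 7 spike-in probes, the deposited table, normexp background correction (offset 50, on the median signal), a floor of 1 intensity unit, no filter on dim probes, a stricter filter (24 of 24 arrays), averaging a gene's probes, keeping marked spots, a slide block, fitting only the conditions compared, no trend, no moderation, the paper's thresholds (unadjusted p under 0.01 with a fold over 1.5 or under 0.7), and leaving out each replicate of every condition or single arrays.

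The members and lists were chosen with earlier results of these data known. Genes named are the 10 members, CTNNB1, genes among the 3 most correlated with each tested member, and from each list the genes called in a Wnt3a comparison or in a difference of Wnt3a responses, at most the 6 with the largest change; some that the rule covers are not reported here. The lists were other MMP genes, ADAM and ADAMTS proteases, the plasminogen system, other MMP inhibitors and activators, cysteine and serine proteases of the matrix, AP-1 and ETS factors, Wnt feedback and TCF/LEF genes, and meprins and matrix substrates, with markers of hepatocytes, biliary cells, fibroblasts and myofibroblasts, endothelium, and blood and macrophages. SPP1, CSF1R, CD68, APOA1, TTR, LUM, TEK, KDR and the dimmest markers were named after their values were seen. Promoters came from RefSeq on GRCh38.p14, and protein sequences were not used here.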

Additional observations from a re-analysis of the deposited data

Results flagged for a closer look

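MMP10 and TIMP4 did not pass the filter and enter no comparison, but single arrays were well above background and above all 3 untreated arrays. MMP10 was -5.22 in replicate 1 and -5.38 in replicate 3 with FZD8_CRD and Wnt3a. TIMP4 was -4.33 in replicate 3 after control siRNA with Wnt3a, -2.01 in replicate 3 with FZD8_CRD, and -5.71 in replicate 3 with FZD8_CRD and Wnt3a. The cause was not tested.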

How the results depend on the processing

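Of 29 called member results, the alternatives other than leaving out arrays gave 400 values, of which 345 kept direction and call, 54 lost the call and 1 changed sign; leaving out replicates or arrays gave 261, of which 179 kept both and 82 lost the call. Of the 67 member results not called, printed or not, 20 of 896 and 19 of 699 gained a call, and 26 and 42 changed sign. MMP1 and TIMP3 have no value in the deposited table or under the filter on all 24 arrays. Leaving out a replicate of every condition leaves 2 arrays in each. What dim signals limit is the size of the MMP1 and TIMP3 changes, and MMP10 and TIMP4 could not be tested. The cause of each change below was not tested.

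Some of the changes in the numbers of members called are given here, with those of all genes in parentheses, and smaller changes are left out. With scaling to the spike-in probes they were 0 (305) for Wnt3a without transfection, 2 (54) for Wnt3a after control siRNA, 1 (1561) for control siRNA against no transfection, 1 (241) for the same with Wnt3a, 1 (180) for CTNNB1 siRNA without Wnt3a, 1 (2354) for FZD8_CRD with Wnt3a and 3 (6032) for any difference among the 8 conditions. For control siRNA with Wnt3a the number was 1 in the deposited table (2315), with normexp (1732), with a floor of 1 (2186) and with the filter on all 24 arrays (2146). Without a filter it was 1 (4803) for control siRNA. With only the conditions compared it was 0 (2) for Wnt3a without transfection, 0 (0) for Wnt3a with FZD8_CRD, 0 (3703) for control siRNA, 0 (1) for control siRNA with Wnt3a and 2 (6387) for FZD8_CRD. At the paper's thresholds it was 2 (314) for Wnt3a after CTNNB1 siRNA, 2 (4653) for FZD8_CRD with Wnt3a, 1 (140) for the difference between the siRNAs and 1 (731) for the difference with FZD8_CRD.

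With the slide as a block, a pairing of the arrays of 1 slide, 1 member was called for Wnt3a after CTNNB1 siRNA (MMP2, adjusted p 0.039; 46 of all genes) and 4 for control siRNA with Wnt3a (3754); no member call was lost with it, and MMP1 (0.048) and MMP14 (0.0296) with FZD8_CRD and TIMP2 without transfection (0.0133) gained a call for Wnt3a.

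Of the sign changes counted above, those of results called, of Wnt3a changes and of differences of Wnt3a responses were these, none of them called after the change: the FZD8_CRD difference of MMP2 (0.06) with quantile normalization (-0.05) and in the deposited table (-0.05); with spike-in scaling, Wnt3a without transfection for TIMP1 (0.08 to -0.31) and TIMP2 (0.21 to -0.18), Wnt3a after CTNNB1 siRNA for MMP1 (0.06 to -0.07), FZD8_CRD alone for TIMP2 (0.35 to -0.04), and the siRNA difference for TIMP1 (0.11 to -0.18) and TIMP3 (0.03 to -0.27); and with normexp the siRNA difference of MMP1 (-0.18 to 0.14). With replicates or arrays left out the value ran from -0.11 to 0.22 for TIMP1 with Wnt3a without transfection, from -0.27 to 0.04 for MMP2 and -0.21 to 0.40 for TIMP3 in the siRNA difference, and from -0.13 to 0.31 for MMP2, -0.06 to 0.50 for MMP14 (0.25 with all arrays) and -0.03 to 0.29 for TIMP1 (0.10 with all arrays) in the FZD8_CRD difference.

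Leaving out replicates or arrays, members called ran from 0 to 5 for Wnt3a without transfection (all genes 6 to 6344), 0 to 3 after control siRNA (4 to 574), 0 to 1 after CTNNB1 siRNA (0 to 96) and 0 to 6 with FZD8_CRD (0 to 5328). They ran from 0 to 4 for control siRNA (233 to 6876) and 0 to 5 with Wnt3a (1 to 4045), 1 to 2 for CTNNB1 siRNA (474 to 2374) and 1 to 3 with Wnt3a (588 to 2646), 2 to 5 for FZD8_CRD (6215 to 11229) and 2 to 6 with Wnt3a (4107 to 10126), 0 to 0 for the siRNA difference (0 to 11), 0 to 2 for the FZD8_CRD difference (0 to 2989) and 4 to 8 for any difference (6725 to 15380).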
